A study of Nothobranchius furzeri with 16 samples.

Results

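The 300 shortest expressed genes of the killifish brain were compared between old and young animals. They were chosen by length alone. Of 26739 genes in the count table, 10042 had a mean of at least 10 counts per 1000000 counts of the library (CPM) over 8 RNA libraries, and the 300 with the shortest implied gene model were taken. The length of a gene was read from its deposited counts and RPKM values (reads per kilobase of gene and 1000000 reads), since these differ by the length and the library total. No age difference entered the choice. The 300th gene had a length of 466 nt and the next gene 468 nt. The median over the 300 was 367 nt, against 3733 nt in the other 9742 genes.

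The libraries came from whole brains of male turquoise killifish (*Nothobranchius furzeri*) of the strain MZM-04/10p, an annual fish with a very short life. Old fish were 26 weeks and young fish 6 weeks of age, with 4 RNA libraries per age, numbered I to IV, and the labels name no treatment or genetic change in either group. Ribosome footprints (ART-seq, which sequences the RNA pieces held by ribosomes) were taken from 4 further libraries per age. The RNA libraries held 9461792 to 13771769 counts. Nothing in the labels says that the libraries of a group are separate fish. All p-values therefore refer to the spread between these libraries, part of which may be technical.

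Short messenger RNAs encode small proteins, and many of these are parts of large machines present in every cell. They include proteins of the cytosolic ribosome, subunits of the respiratory chain and ATP synthase, the core proteins of the spliceosome, and light chains of the dynein motor. In neurons, small proteins such as complexin and stathmin act on synaptic vesicle release and on microtubules. The ribosomal proteins among them are made from some of the most abundant transcripts of a cell.

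The gene models of these 300 genes mostly had lengths that coding sequence without untranslated regions would give. Lengths that are an exact multiple of 3 were found in 288 of 300 (96%), against 4367 of 9742 other genes (44.8%). Most of the values can thus be read as lengths of coding sequence, whole or in part. Whether a model covers the whole coding sequence of its gene was not tested, so a short model need not mean a small protein. The shortest models had 23 nt (Nfu_g_1_026254), 24 nt (Nfu_g_1_026718) and 168 nt (Nfu_g_1_015433, named SUB1, 1 of 2 copies, a transcriptional coactivator). Only 102 of the 300 could be given a gene name, through shortened tables that pair identifiers with names. The other 198 are given by identifier.

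The level of the short genes split the libraries by replicate number before age. In replicate I of both ages the short genes were low. Their median level was 0.72 below that of CPM-matched genes on the log2 CPM scale in the old replicate I library and 0.76 below it in the young one. In old replicates II, III and IV the same difference was 0.18, -0.07 and 0.08, against 0.30, 0.27 and 0.29 in young replicates II, III and IV. CPM-matched genes here are the 5 other expressed genes nearest in mean CPM to each short gene, 1500 in all with repeats and 1352 distinct. The mean is over all 8 libraries, so low values in replicate I by themselves raise the difference in the other libraries. The old replicate I library was the lowest of the 4 old libraries in 228 of the 300 short genes (76%), against 46.7% of the matched genes. The young replicate I library was the lowest of the 4 young libraries in 229 (76.3%), against 47.5% of the matched genes. The testing of replicates II to IV, with the replicate I pair described apart, was set beforehand, with earlier results of these data known.

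Markers of other cell types were summed as a check of the tissue and of the libraries, as far as they could be named. Neuronal markers (7 of 11 nameable, such as SNAP25 and SYT1) summed to 2381 to 2839 CPM in old and 2150 to 2437 CPM in young replicates II to IV. They summed to 1321 CPM in old and 1477 CPM in young replicate I. Oligodendrocyte markers (4 of 7 nameable) summed to 3113 to 4670 CPM in old and 3466 to 5052 CPM in young libraries. Markers of dividing cells (6 of 6) summed to 128 to 156 CPM in the 4 old and 261 to 296 CPM in the 4 young libraries. The 2 nameable pituitary hormones of 7, GH1 and LHB, summed to 0.372 to 1.65 CPM in old and 39.6 to 81.7 CPM in young replicates II to IV. In replicate I they summed to 8.27 CPM in old and 0 CPM in young brain. One microglial marker of 9 (APOE), 1 blood marker of 9 (ALAS2) and 3 skeletal muscle markers of 8 could be named. APOE copies summed to 143 to 435 CPM in the 4 old and 71.2 to 199 CPM in the 4 young libraries. ALAS2 had 12.5 to 24.1 CPM in old and 12.6 to 28.2 CPM in young libraries. No nameable marker was at 0 in every library. The part of these differences in the results on short genes was not tested.

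**Figure D1:**
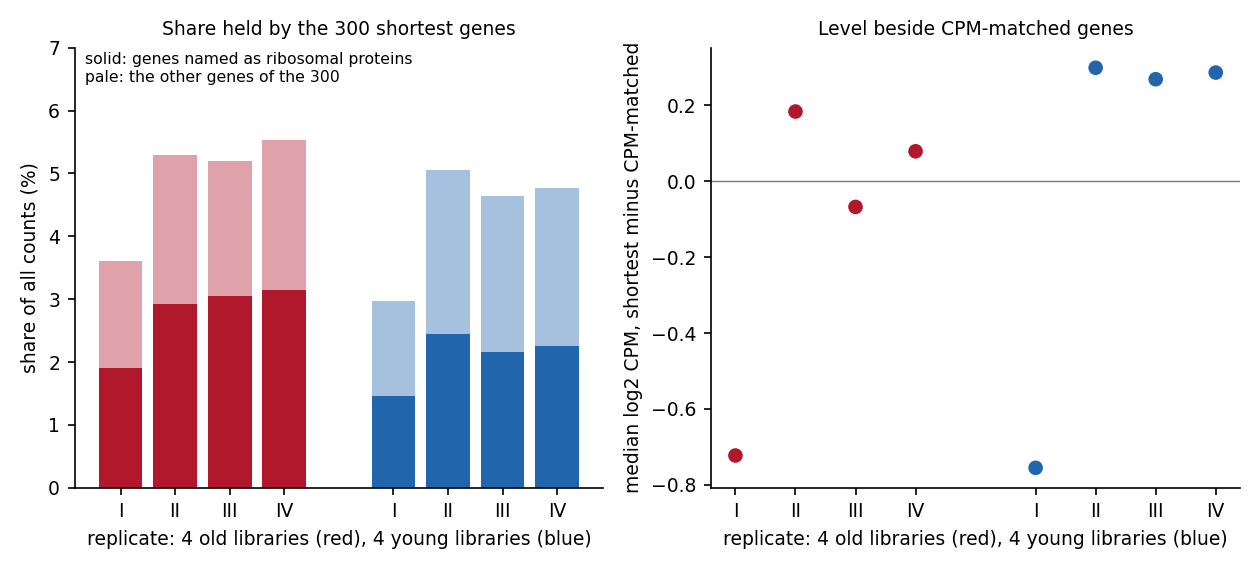
Left, the share of all counts (%) held by the 300 shortest genes in each RNA library, 4 old (red) and 4 young (blue), with the named ribosomal proteins as the solid part. Right, the median log2 CPM of the short genes minus that of CPM-matched genes, 1 point per library. The replicate I libraries of both ages sit near -0.72 and -0.76 in the right panel, apart from all others, and old replicates II to IV sit below young replicates II to IV.

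The first comparison asked how the short genes differ between old and young brain in replicates II to IV. More of them were lower than higher in old brain, the reverse of other expressed genes. Of the 300 short genes, 141 passed the test (47%), 54 higher (18%) and 87 lower (29%) in old brain (edgeR quasi-likelihood test, Benjamini-Hochberg adjusted p under 0.05 over all genes). Over all 16614 genes tested, 31.9% passed, 16.0% higher and 15.9% lower. Over the 10042 genes at the same minimum CPM, 36.9% passed, 22.5% higher and 14.4% lower. All 300 short genes entered the test. In bulk tissue, fewer cells of a type and less RNA per cell cannot be told apart.

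The median log2 fold change, old over young, was -0.15 in the 300 short genes (quartiles -0.49 and 0.25). It was 0.07 in the CPM-matched genes (quartiles -0.24 and 0.34), a difference of -0.22. Of the matched genes, 36% passed, 21.7% higher and 14.3% lower. Below a log2 fold change of -1 were 18 short genes, and above 1 were 4. Old and young replicates II to IV did not overlap in 174 short genes (58%), of which 75 were higher and 99 lower in old brain, against 51.8% of the 10042 genes.

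The balance of these calls depended on the scaling and on single libraries, and their number on single libraries. Of the calls, 38.3% were higher in old brain, against 27.7% with upper quartile scaling and 23.3% without young replicate 4. The shares of all genes given here are not split by direction. With upper quartile scaling, 38 short genes were higher and 99 lower in old brain, where 31.0% of all genes passed. Scaled by library totals only, 29 were higher and 118 lower, where 31.6% of all genes passed and the median of all genes moved by -0.13. The difference between short and CPM-matched genes was -0.22 with either scaling. Without old replicate 4, 34 were higher and 71 lower (22.8% of all genes passed). Without young replicate 3 these were 22 and 63 (15.0%), and without young replicate 4 they were 17 and 56 (12.5%). With all 8 libraries and no term for replicate I, 1 was higher and 1 lower, where 0.340% of all genes passed. With a term for replicate I the lean towards lower values was small, with 47 higher and 50 lower and a median log2 fold change of -0.04, where 25.0% of all genes passed and the median of all genes was 0.06.

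In the replicate I pair, with 1 library per age and so no test, the short genes did not lie below the others. Their median log2 ratio, old over young, was 0.03 (quartiles -0.21 and 0.31), against 0.01 in the CPM-matched genes. The ratio was above 0 in 166 of 300 short genes (55.3%), in 51.3% of the matched genes and in 48.5% of the 10042 genes. Of the 54 short genes called higher in replicates II to IV, 41 were also higher in the old library of the pair (75.9%). Of the 87 called lower, 58 were also lower there (66.7%). In the other expressed genes these shares were 81.7% of 2208 and 79.2% of 1358. Whether the age change itself differs between replicate I and replicates II to IV was not tested.

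**Figure D2:**
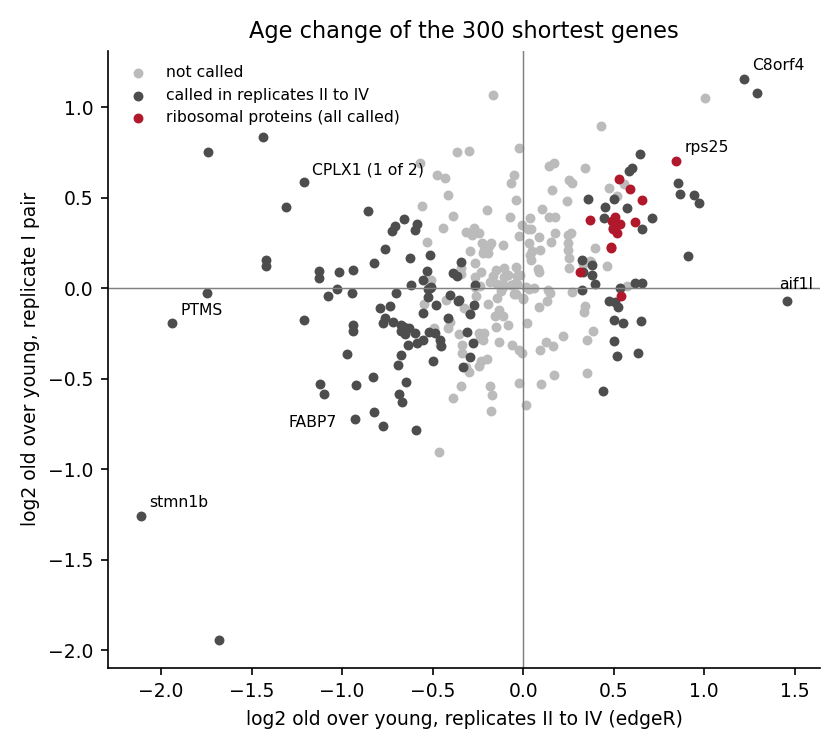
Log2 ratio of old over young for each of the 300 shortest genes in replicates II to IV (x axis, edgeR) and in the replicate I pair (y axis, log2 ratio of TMM-normalized CPM). The 15 ribosomal proteins (red) lie right of 0 and 14 of them above 0, whereas genes called lower in old brain (dark, left) lie on both sides of 0 on the y axis.

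The lower median of the short genes was the end of a gradient over gene length, along which abundance rose too. When the 10042 genes were ordered by length in 10 equal bins, the median log2 fold change in replicates II to IV was -0.19 in the shortest bin (23 to 984 nt) and -0.08 in the next. It was 0.04 and 0.05 in the following pair of bins, then 0.09, and 0.12 to 0.15 in the 5 longest. The share called lower in old brain was 32.5% in the shortest bin and 7.96% in the longest, and the share called higher was 14.9% and 28.9%. In the replicate I pair the bin medians ran between -0.05 and 0.04, with the highest value in the shortest bin. Across genes, Spearman's rho between length and log2 fold change was 0.21 in replicates II to IV and -0.03 in the pair (n = 10042 genes, which share libraries and are not independent). Within the 300 short genes there was no such order. The 100 shortest of them had a median of -0.15, the middle 100 of -0.11 and the longest 100 of -0.21.

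**Figure D3:**
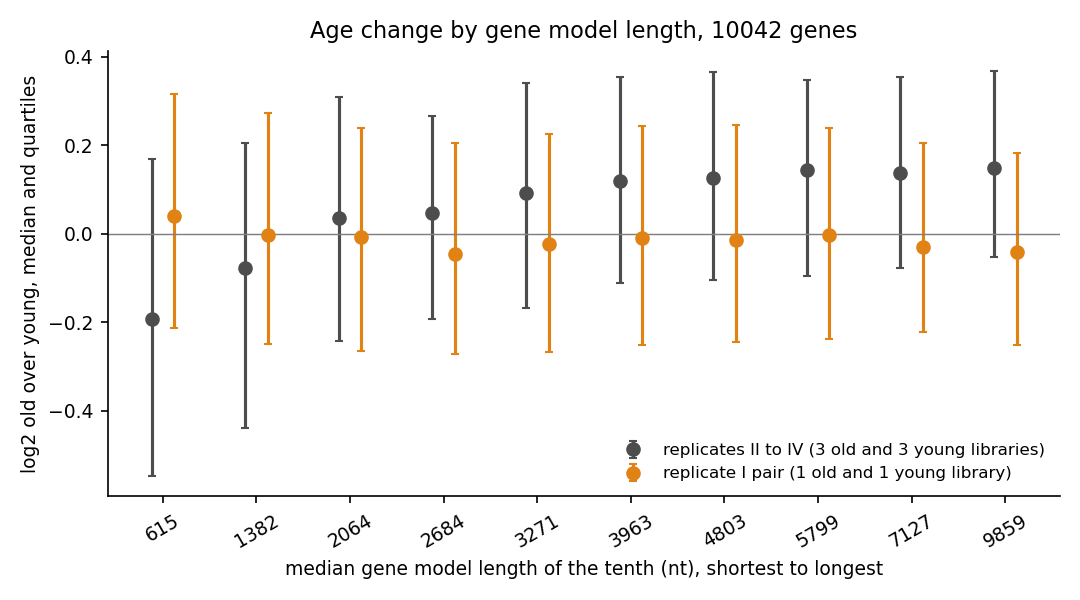
Median log2 ratio of old over young (points) with quartiles (bars) for 10 bins of genes ordered by gene model length, in replicates II to IV (grey) and the replicate I pair (orange). The grey medians climb with length between -0.19 and 0.15, and the orange medians stay between -0.05 and 0.04. The bins are not matched on CPM.

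Gene models without untranslated regions are common among short genes, so genes with a length that is a multiple of 3 were read apart. A length can also be a multiple of 3 by accident. In the longest of the 10 bins 38.2% of the lengths were multiples of 3, and how many by accident was not tested. Among longer genes it therefore does not identify the kind of model. Among the other 9742 genes, those with a length that is a multiple of 3 had a median log2 fold change of 0.02, with 19.2% called higher and 18.7% lower in old brain. Those with other lengths had a median of 0.12, with 25.5% higher and 10.1% lower. When the short genes were matched on CPM only among multiples of 3, their median lay 0.14 below that of the matched genes, in place of 0.22. The difference was thus smaller among multiples of 3, which is no match on the kind of gene model. The part of model type beside length itself was not tested.

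The short genes of 200 CPM or more were mostly higher in old brain, and this rested on the ribosomal proteins among them. Among the 29 short genes with a mean of 200 CPM or more, 19 were higher (65.5%) and 4 lower (13.8%) in old brain, with a median log2 fold change of 0.48. Among the 845 other genes of that abundance, 37.3% were higher and 6.86% lower. The 29 held the 15 named ribosomal proteins, all higher, and the other 14 had 4 higher, 4 lower and a median of -0.02. Below 200 CPM the short genes leaned the other way. From 50 to 200 CPM, 10 of 64 were higher and 25 lower (39.1%), against 27.7% higher and 10.8% lower in 3514 other genes. From 20 to 50 CPM, 11 of 101 were higher and 34 lower (33.7%), against 20.1% and 15.1% in 3183 other genes. From 10 to 20 CPM, 14 of 106 were higher and 24 lower (22.6%), close to the 12.7% and 19.9% in 2200 other genes. Over the 300 short genes, Spearman's rho between mean CPM and log2 fold change was 0.08 (across genes, which share libraries).

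**Figure D4:**
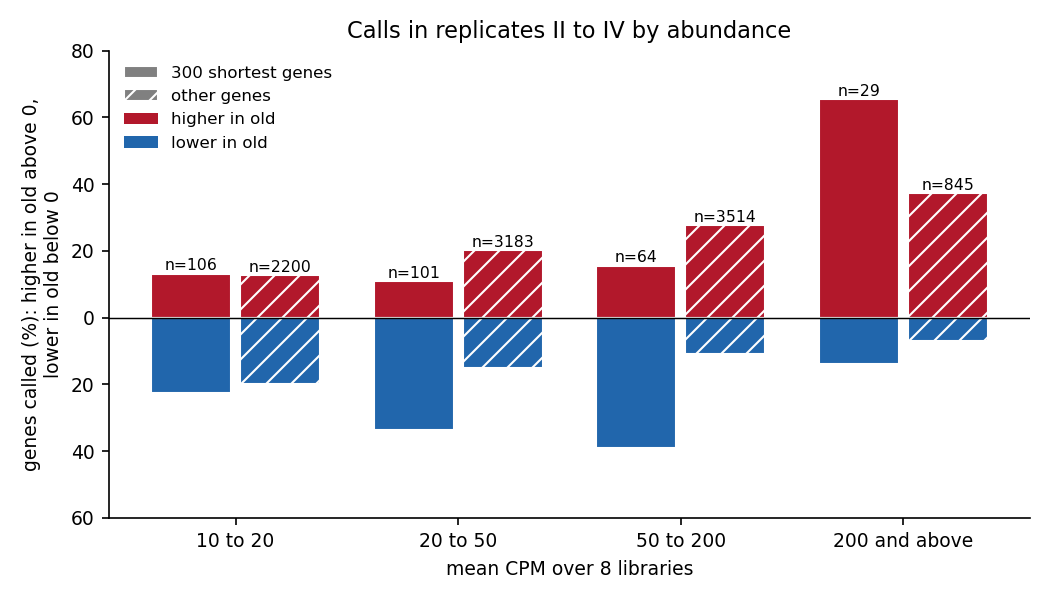
Share of genes called in replicates II to IV (%), higher in old brain (red, upward) and lower in old brain (blue, downward), in 4 classes of mean CPM, for the 300 shortest genes (plain) and the other genes (hatched), with n above each bar. The plain bars point mainly down below 200 CPM and mainly up at 200 CPM and above.

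Among the abundant short genes, all proteins of the cytosolic ribosome that could be named were higher in old brain. Among the 15 were RPL38, rpl37, rpl36a, rpl34, rpl30, rps15a, rps25, rpl14, RPS20, rpl22l1, rps18, rpl26, rps15 and rps13. Each passed the test in replicates II to IV (15 of 15 higher), with a median log2 fold change of 0.52, where 22.5% of the 10042 expressed genes were called higher. All 15 were above 0 with upper quartile scaling and with library totals only, where 14 and 12 passed. All 15 also stayed above 0 with any 1 library left out, where 12 passed without old replicate 4, 11 without young replicate 3 and 10 without young replicate 4. With all 8 libraries and no term for replicate I all 15 were above 0 and 0 passed, and with the term 13 passed. In the replicate I pair 14 of 15 were above 0, with a median of 0.36. Without these 15, the other 285 short genes had 39 higher, 87 lower and a median of -0.18. The 47 named ribosomal proteins with longer gene models gave 38 higher and 0 lower, with a median of 0.47. Ribosomal protein genes can have near-identical copies, which were not looked for here. How reads shared with such copies would be counted is not given in the sources used here.

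rps25, of the small ribosomal subunit, had the highest mean CPM of the 300 genes. It had 2935, 3906, 4888 and 4401 CPM in old replicates I to IV, against 1800, 2684, 2008 and 2172 CPM in young ones. Every old library lay above every young library. In replicates II to IV this was a log2 fold change of 0.85 (standard error 0.11; edgeR, adjusted p = 0.0013). rpl30, of the large subunit, had 816, 1651, 1922 and 1871 CPM in old replicates I to IV and 582, 1205, 994 and 1028 CPM in young ones. The old replicate I library lay below young replicates II to IV, and within each replicate number the old library was the higher one. The fitted change was 0.66 on the log2 scale (standard error 0.09, edgeR adjusted p = 0.0015).

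The other ribosomal proteins differed by less. rpl34 and rpl36a had log2 fold changes of 0.62 and 0.59 in replicates II to IV, and 0.36 and 0.55 in the pair. rpl22l1, a paralog of RPL22, was the only one below 0 in the pair (-0.04). Its log2 fold change in replicates II to IV was 0.54 (edgeR adjusted p = 0.0244), and its adjusted p was 0.0612, 0.109 and 0.084 without old replicate 4, young replicate 3 and young replicate 4. rps15, rps13 and RPS20 had log2 fold changes of 0.37, 0.54 and 0.48. rps15 (edgeR adjusted p = 0.0193) had adjusted p of 0.0534, 0.0959 and 0.0943 without those libraries. RPS20 (0.00774) had 0.0511 without young replicate 4.

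As a share of all counts, the 15 ribosomal proteins held 2.92%, 3.06% and 3.15% in old replicates II to IV and 2.44%, 2.15% and 2.25% in young ones. The other 285 short genes held 2.37%, 2.14% and 2.38% in old and 2.61%, 2.49% and 2.51% in young replicates II to IV. Both shares separated the ages without overlap, in opposite directions. The shares use library totals, and with that scaling the median log2 fold change of all genes was itself -0.14. How much of the lower share of the 285 genes goes with this shift was not tested. In replicate I the ribosomal share was 1.91% in old and 1.47% in young brain, and the share of the others 1.70% in old and 1.501% in young. Together the 300 genes held 5.34% ± 0.174 of the counts in old and 4.82% ± 0.209 in young replicates II to IV (SD, n = 3 each).

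Of the 20 short genes with at least 900 CPM, 14 were named ribosomal proteins, 1 was FABP7 and 5 had no name here. All 5 had log2 fold changes above 0, between 0.24 and 0.86, and 3 passed the test. The most abundant of them, Nfu_g_1_018721 (399 nt), had 2909, 3018, 3915 and 3474 CPM in old replicates I to IV, against 2142, 2548, 2007 and 1971 CPM in young ones. Every old library lay above every young library, at a fitted log2 change of 0.58 (standard error 0.11, edgeR adjusted p = 0.00559).

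Several named groups held decreases and no increases among their short members, and small neuronal signalling and cytoskeletal proteins had the most members of these. Of 11 short members, 8 fell, 0 rose and 3 did not pass, where 14.4% of the 10042 expressed genes were called lower, with a median log2 fold change of -0.66 and all 11 below 0. Without old replicate 3, 10 of 11 were below 0 and 9 fell. The calls were 6 without old replicate 4, young replicate 2, 3 or 4. Of 17 further named members, which were not among the chosen short genes, 8 fell and 2 rose, with a median of -0.51. The gene models of these 17 had a median of 1847 nt. The shortest had 204 nt, within the range of the short genes, so not all 17 were longer. In the replicate I pair 7 of the 11 were above 0, with a median of 0.12. Over the 5176 named genes tested, 975 rose and 1167 fell, with a median of -0.07. The name tables are shortened and so hold an uneven part of the genes.

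stmn1b, a stathmin that binds tubulin and destabilises microtubules, fell most of all 300 genes. It had 7.35, 7.92, 10.8 and 5.12 CPM in old replicates I to IV, against 17.8, 33.2, 29.1 and 32.3 CPM in young ones. No old library reached the lowest young one, in replicate I as in the others. The log2 fold change was -2.11 (standard error 0.21, edgeR adjusted p = 0.000444) and the pair gave -1.26. DYNLL2, a light chain of dynein, had 28.9, 104, 99.1 and 101 CPM in old replicates I to IV and 41.9, 193, 171 and 177 CPM in young ones. Old libraries II to IV were close together and below their young counterparts, and both replicate I libraries were far lower. It fell by 0.92 on the log2 scale (standard error 0.08, edgeR adjusted p = 0.000258), against -0.53 in the pair.

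Other members of this group fell in replicates II to IV, where the young libraries were high, and not in the pair. CPLX1 (1 of 2 copies), a complexin that binds the SNARE complex of synaptic vesicles, had 19.1, 21.2, 11.8 and 21.8 CPM in old replicates I to IV, against 12.6, 31.6, 44.1 and 44.5 CPM in young ones. The young replicate I library was lower than its old partner. In replicates II to IV it fell by 1.21 on the log2 scale (standard error 0.25, edgeR adjusted p = 0.00712), and the pair gave 0.59. PFN2L, a profilin that binds actin monomers, had 14.5, 19.3, 8.06 and 14.9 CPM in old replicates I to IV and 13.3, 28.8, 38.7 and 40.2 CPM in young ones. It fell by 1.42 on the log2 scale (standard error 0.29, edgeR adjusted p = 0.00671), with 0.12 in the pair. ARPP19 (1 of 2), whose best human match in the name tables is MYO5A, had the smallest difference of the group, -0.03 (edgeR adjusted p = 0.921).

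Some short genes outside this group showed the same contrast between replicates. atp6v1f, a subunit of the proton-pumping V-type ATPase, fell by 1.02 (edgeR adjusted p = 0.00198), with 0.09 in the pair. Of the 11 named V-type ATPase members with longer models, 1 fell and 1 rose, with a median log2 fold change of -0.09. FKBP1B, a prolyl isomerase known as a partner of ryanodine receptors in mammals, fell by 1.13 (0.00183), with 0.10 in the pair.

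**Figure D5:**
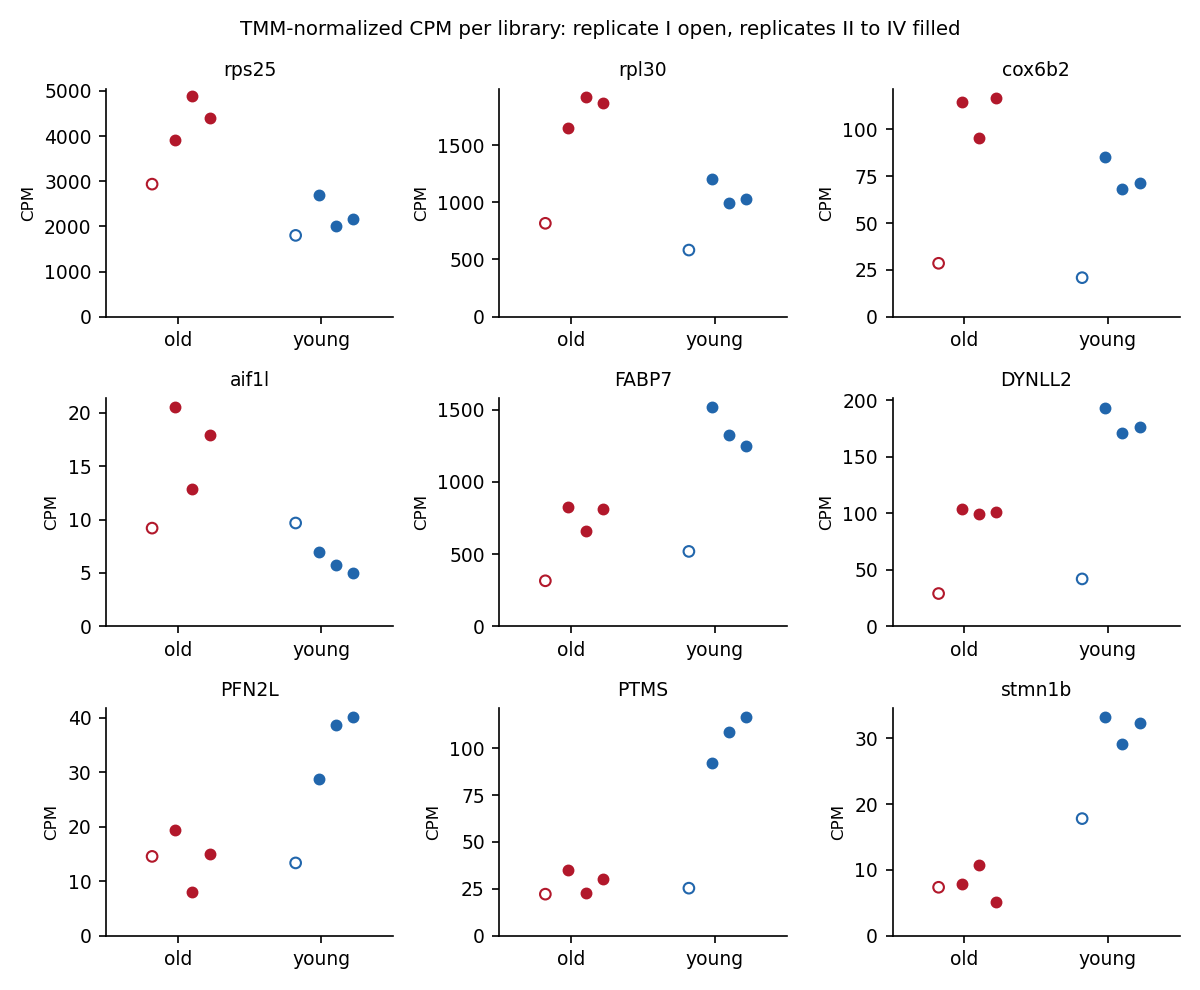
TMM-normalized CPM in each RNA library for 9 of the short genes, old (red) left of young (blue), replicate I open and replicates II to IV filled. rps25, rpl30, cox6b2 and aif1l are higher in old replicates II to IV, FABP7, DYNLL2, PFN2L, PTMS and stmn1b are lower, and for PFN2L and PTMS the open symbols of both ages are nearly level.

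PTMS, parathymosin, a small acidic nuclear protein, was the second largest decrease. It had 22.1, 35.0, 22.7 and 30.3 CPM in old replicates I to IV, against 25.3, 92.4, 109 and 117 CPM in young ones. Old and young replicates II to IV were far apart, whereas the replicate I libraries differed little. Its log2 fold change was -1.94 (standard error 0.18, edgeR adjusted p = 0.000295), with -0.19 in the pair. The unnamed Nfu_g_1_013628 (459 nt) had 8.19, 9.27, 4.46 and 9.55 CPM in old and 8.33, 21.3, 28.1 and 25.1 CPM in young replicates I to IV. It fell by 1.75 (edgeR adjusted p = 0.0025), with -0.02 in the pair. nutf2, the carrier of the GTPase Ran into the nucleus, had 10.7, 7.32 and 9.81 CPM in old and 19.5, 20.4 and 21.0 CPM in young replicates II to IV. It fell by 1.21 (edgeR adjusted p = 0.00235), with -0.17 in the pair.

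The 3 spliceosome proteins among the short genes all fell, where 14.4% of the expressed genes were called lower, and their pair values were below 0 as well. SNRPF, an Sm protein of the snRNP core, had 30.7, 28.8 and 29.7 CPM in old and 52.1, 44.1 and 52.4 CPM in young replicates II to IV. The old libraries were nearly equal and below all young ones, and the gene fell by 0.83 on the log2 scale (standard error 0.11, edgeR adjusted p = 0.00132). SRSF10, a splicing factor, fell by 0.59 (0.0108), which was lost without young replicate 4 (0.055). Its pair value was -0.78. snrpc, the U1 C protein, fell by 0.46 (0.00966). Of the 30 named members with longer models, 14 fell and 3 rose, with a median of -0.33.

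Respiratory chain and ATP synthase members moved both ways. Of 6, 3 fell (cox7a2, ATP5G3 and ndufab1b), 1 rose (cox6b2) and 2 did not pass, where 14.4% of the expressed genes were called lower and 22.5% higher. Only 2 of the 6 passed without young replicate 3 or young replicate 4, both lower. ATP5G3, the membrane ring subunit of ATP synthase, had 393, 336 and 391 CPM in old and 593, 488 and 549 CPM in young replicates II to IV, without overlap. On the log2 scale it fell by 0.63 (standard error 0.11, edgeR adjusted p = 0.00359). cox7a2 and cox6b2 are both subunits of cytochrome c oxidase and differed in opposite directions. cox7a2 had 114, 106 and 112 CPM in old and 205, 152 and 173 CPM in young replicates II to IV, and fell by 0.76 on that scale (edgeR, adjusted p = 0.00158). cox6b2, whose best human match is COX6B1, had 115, 95.5 and 117 CPM in old and 85.1, 68.1 and 71.6 CPM in young replicates II to IV, and rose by 0.45 (0.0184). The cox6b2 call was lost without old replicate 4 (0.0611), young replicate 3 (0.0854) or young replicate 4 (0.0843), and with library totals only (0.0666). Among the 26 named members with longer models 14 fell and 1 rose, with a median of -0.35.

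Of 5 short members of the ubiquitin group, 3 fell and 0 rose, where 14.4% of the expressed genes were called lower. The calls were 2 without young replicate 3 or young replicate 4. In the replicate I pair 3 of the 5 were above 0, with a median of 0.004. Of 11 further named members, which were not among the chosen short genes, 4 fell and 1 rose, with a median of -0.84. The gene models of these 11 had a median of 1019 nt. The shortest had 305 nt, within the range of the short genes, so not all 11 were longer. tceb2, elongin B, an adaptor of cullin ligases, had 21.5, 13.3 and 21.97 CPM in old and 32.8, 36.9 and 33.8 CPM in young replicates II to IV. It fell by 0.95 (standard error 0.20, edgeR adjusted p = 0.00792). rbx1, the RING protein of cullin ligases, whose best human match is RNF7, fell by 0.68 (0.0033). UBE2A, a ubiquitin-conjugating enzyme, had 0.08 (0.64) and changed sign without old replicate 2 (-0.016) and with library totals only (-0.049). Among 3 translation factors, EIF1B, of start codon selection, fell by 0.55 (edgeR adjusted p = 0.0164), which was lost without young replicate 3 (0.0636) or 4 (0.0569). Its pair value was 0.05. denr and eif1axb had -0.02 (0.899) and -0.18 (0.178). denr was above 0 without old replicate 3 (0.013), young replicate 2 (0.021) or young replicate 3 (0.0041).

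Groups with fewer than 3 short members gave single values. The mitochondrial import proteins tomm22 and tomm7 fell by 0.82 and 0.59 on the log2 scale, and the histone variant gene H2AFZ fell by 0.64. In the replicate I pair tomm22 and tomm7 were above 0 (0.14 and 0.36) and H2AFZ was below 0 (-0.52). The 2 mitochondrial ribosomal proteins, mrpl27 and MRPL30, did not pass (-0.22 and -0.20). Myoglobin (mb), the proteasome subunit psmb5 and the antioxidant enzyme gpx4b did not pass either (-0.07, -0.08 and -0.37).

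Lipid carriers held the most abundant short gene that fell. FABP7, the brain fatty acid-binding protein known from radial glia, had 315, 825, 657 and 811 CPM in old replicates I to IV, against 518, 1519, 1329 and 1252 CPM in young ones. Old and young did not overlap in replicates II to IV, and within replicate I the old library was again the lower one. The log2 fold change was -0.93 (standard error 0.12, edgeR adjusted p = 0.00139), with -0.72 in the pair. FABP4 had 64.5, 43.9 and 61.2 CPM in old and 58.8, 48.6 and 57.0 CPM in young replicates II to IV. These overlap (log2 fold change -0.04, edgeR adjusted p = 0.87), and the sign changed without old replicate 3 (0.14). FABP7 is also 1 of the astroglial markers, which summed to 5882 to 7976 CPM in old and 7630 to 10056 CPM in young replicates II to IV.

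Of the 22 named short genes that rose, 15 were ribosomal proteins. aif1l, an actin-binding protein related to allograft inflammatory factor, had the largest increase of the 300. It had 9.19, 20.6, 12.9 and 17.9 CPM in old replicates I to IV, against 9.67, 6.92, 5.76 and 4.98 CPM in young ones. The replicate I libraries were alike and the others apart, at a fitted log2 change of 1.46 (standard error 0.23, edgeR adjusted p = 0.0026) and -0.07 in the pair. C8orf4 had 22.9, 27.2, 29.9 and 29.2 CPM in old and 10.2, 11.8, 12.9 and 9.89 CPM in young replicates I to IV. All 4 old libraries lay well above all 4 young ones. Its log2 fold change was 1.22 (standard error 0.14, edgeR adjusted p = 0.000724), with 1.16 in the pair. The unnamed Nfu_g_1_016752 (405 nt) had 12.7, 34.1, 23.8 and 26.4 CPM in old and 5.93, 11.8, 9.12 and 11.5 CPM in young replicates I to IV. Its lowest old library, replicate I, lay only slightly above its highest young one. This gene rose by 1.29 (edgeR adjusted p = 0.0018), with 1.08 in the pair.

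The 3 shortest models did not share a direction. Nfu_g_1_026254 (23 nt) had 273, 404 and 311 CPM in old and 284, 210 and 205 CPM in young replicates II to IV. The groups overlapped and the call was weak (log2 fold change 0.40, edgeR adjusted p = 0.0473), and it was lost without old replicate 3 (0.0999), old replicate 4 (0.0819), young replicate 3 (0.168) or young replicate 4 (0.188). Nfu_g_1_026718 (24 nt) had 62.0, 54.3 and 51.1 CPM in old and 51.2, 39.7 and 39.7 CPM in young replicates II to IV, without a call (0.27, edgeR adjusted p = 0.117). It was highest in replicate I, with 119 CPM in old and 79.1 CPM in young brain, where most short genes were lowest. SUB1 (1 of 2) had -0.18 (edgeR adjusted p = 0.22).

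In the footprint libraries too little was measured to compare the ages gene by gene. Of 97 named short genes without a copy number, 44 matched 1 footprint symbol. Of these, 27 were above 0 in any of the 8 libraries (61.4%), against 22.7% of all 28494 symbols. The sets are unlike, since the 44 had passed the minimum CPM in RNA and the 28494 were not chosen by expression. Of the 44, 26 were above 0 in any old library and 19 in any young library. Counted in each library singly, which is another basis, 1379 to 2605 of all symbols were above 0 in old and 262 to 1490 in young ones. RPS25 was listed at 40.6, 55.4, 296 and 23.4 TPM (FPKM rescaled to a sum of 1000000) in the old libraries, against 132 TPM in 1 young library and 0 in the other 3. RPL14 was listed at 21.4 and 15.6 TPM in 2 old libraries and 0 in the others, against 39.6, 71.1, 34.8 and 269 TPM in the young ones. The 8 matched ribosomal proteins above 0 had the higher mean in old brain in 4 cases and in young brain in 4.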

How the data were processed

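Whole brains of male *N. furzeri* were profiled by RNA sequencing (4 libraries per age) and ribosome footprinting (4 further libraries per age). The authors deposited RNA counts per gene, whole numbers without normalization, and RPKM values of the same libraries. The submitters' processing notes name bcl2fastq 1.8.4, STAR 2.4.1d and featureCounts 1.4.6-p4. The study's account of RNA mapping covers fish of ages not used here and a stranded kit. For the RNA libraries used here, genome build, strand setting and the handling of shared reads are not given in the sources used here. The kit in the labels does not mark strand, so overlapping antisense genes cannot be told apart. The footprint files, deposited as FPKM per gene symbol and made with STAR on the NotFur1 genome and RSEM 1.3.1, were rescaled here to TPM. Titles of old RNA samples carry the number 22, and the age label of 26 weeks was used.

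CPM for choosing genes used each library's own total. A gene's length was the median, over libraries with RPKM above 0.1, of counts over RPKM and library total. The deposited RPKM values follow library totals recycled down the table, so this length scattered between libraries (median coefficient of variation 17.6%, against 0.00243% with the recycled totals). Lengths printed for single genes use the recycled totals, apart from the 466 nt of the 300th gene, which has 501 nt with them. With the recycled totals, 292 of the 300 genes were the same.

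Replicates II to IV were tested in edgeR 4.0.16 under R 4.3.3 (TMM, filterByExpr, quasi-likelihood test, Benjamini-Hochberg adjustment over all genes, threshold 0.05). The script was tested on simulated data. CPM per library were TMM-normalized over all 8 libraries, and the pair ratio used a prior count of 2. Lists came from fish symbols or, where these say nothing, best human matches. DESeq2 1.42.0, other scalings, filters, lengths, list sizes and matchings, replicate blocks and the omission of each library were alternatives. Genes were named by rule: the 8 largest increases and 8 largest decreases called among named short genes, the 3 of each with or without a name, the 5 highest in CPM, the 3 shortest, and the highest, largest and smallest change in each list of at least 3. The genes and lists were chosen with earlier results of these data known. No sequences were used. Results of a few genes that the rule names are not reported here.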

Additional observations from a re-analysis of the deposited data

Results flagged for a closer look

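In groups of 4 libraries, values of 90 groups (41 named genes and 4 summary measures at each age) were checked for a library far from its group, by the gap to the nearest library over the whole range. Chance gives such a gap in about 1 in 20 independent groups, and 13 were found. That rate is no measure here, because the groups share the same 8 libraries. Also, 34 of the 41 genes had passed in replicates II to IV, which favours close values there. All 13 concerned a replicate I library. Among old libraries, replicate I was lowest for denr (0.953), DYNLL2 (0.932), SNRPF (0.911) and cox7a2 (0.895), and highest for Nfu_g_1_026718 (0.839). Among young libraries, replicate I was lowest for atp6v1f (0.948), nutf2 (0.903), EIF1B (0.896), eif1axb (0.868), tceb2 (0.86) and DYNLL2 (0.852). It was also lowest for the share of counts held by the 285 short genes not named as ribosomal proteins (0.896) and for the median level of the short genes beside CPM-matched genes (0.971). None of these libraries entered the test of replicates II to IV.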

How the results depend on the processing

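The difference between short and CPM-matched genes in replicates II to IV was -0.22 and ran from -0.26 to -0.15 when 1 library was left out. It stayed below 0 and within 0.09 of this value in every alternative run. The 0.09 is an SD between libraries of the level beside CPM-matched genes, pooled over 0.126 in old and 0.0152 in young replicates II to IV. That SD does not measure the error of the difference. Without old replicate 3 the difference was -0.15. In the replicate I pair, the median of the short genes was -0.01 with library totals only and between 0.02 and 0.07 in the other alternatives. With all 8 libraries and no term, 0.667% of the short genes passed, 0.333% higher and 0.333% lower, and their median was -0.050. With a term for replicate I, 15.7% were higher, 16.7% lower and the median was -0.037. With library totals only, 9.67% were higher and the median was -0.28. Leaving out 1 library, 24.3% to 47.7% passed, 5.67% to 17.3% higher and 18.7% to 30.3% lower, with medians of -0.17 to -0.10. The causes were not tested, beyond the smaller number of libraries. Matching among multiples of 3 and leaving out ribosomal proteins were added after seeing the data.

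With the replicate block, 11% were higher in replicates II to IV. With the replicate block over all 8 libraries, 24.3% passed, 11.7% higher and 12.7% lower, with a median of -0.043. Same-numbered libraries of replicates II to IV did not deviate together from their age means (correlations -0.29, -0.27 and 0.18), so the numbers were not taken as pairs.

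Of the 41 named genes, 34 passed in replicates II to IV, and none of the 34 changed sign in any alternative. The alternatives use most or all of the libraries in which the 34 had passed, which favours a kept sign. In the replicate I pair alone some of the 34 had the opposite sign, as given above. Some genes without a call changed sign in the alternatives. UBE2A was -0.049 with library totals only and -0.016 to 0.18 without 1 library. denr ran from -0.14 to 0.021, ARPP19 (1 of 2) from -0.21 to 0.15 and FABP4 from -0.16 to 0.14 without 1 library. FABP4 was 0.054 with all 8 libraries, 0.063 with the term for replicate I and 0.052 with the replicate block over all 8. The 159 short genes without a call had log2 fold changes between -0.57 and 1.003, which 3 libraries per age did not separate from the spread between libraries.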

Other observations

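Further short genes were singled out after their values were seen. The somatostatin genes SST and sst3, which encode inhibitory neuropeptides, differed in opposite directions. SST had 29.8, 32.2 and 28.5 CPM in old and 25.8, 19.2 and 17.4 CPM in young replicates II to IV (log2 fold change 0.44, edgeR adjusted p = 0.0392). sst3 had 14.9, 9.80 and 16.2 CPM in old and 22.9, 19.997 and 19.8 CPM in young ones (-0.69, edgeR adjusted p = 0.0272). Both were low in replicate I, where SST had 5.10 CPM in old and 7.62 CPM in young brain, and sst3 1.59 CPM in old and 2.19 CPM in young brain.

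Both copies of the myelin basic protein gene were among the short genes, and neither passed the test, with log2 fold changes of 0.17 (mbpa) and -0.31 (mbpb). In the replicate I pair they were 0.70 and 0.31. The unnamed Nfu_g_1_000171 (198 nt) was lower in old brain in both sets of libraries. It had 3.09, 9.46, 13.8 and 9.46 CPM in old and 12.4, 35.5, 30.8 and 30.8 CPM in young replicates I to IV, and fell by 1.68 (log2; edgeR, adjusted p = 0.000258), with -1.94 in the pair.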
